A study of Arabidopsis thaliana with 10 samples.

Results

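The genes described here are 10 Arabidopsis thaliana genes that drive or mark cell division, taken by their gene IDs from a list of mitotic cyclins, their kinases and associated genes, out of 32833 genes in each deposited expression table. They comprise the A-type cyclin CYCA1;1 (AT1G44110), the B-type cyclins CYCB1;1 (AT4G37490), CYCB1;2 (AT5G06150), CYCB1;4 (AT2G26760) and CYCB2;4 (AT1G76310), the B-type cyclin-dependent kinases CDKB1;1 (AT3G54180), CDKB2;1 (AT1G76540) and CDKB2;2 (AT1G20930), the cytokinesis syntaxin KNOLLE (AT1G08560) and the D-type cyclin CYCD3;1 (AT4G34160). RefSeq listed all 10 names for these IDs, and the genes are called by gene ID below. All 10 passed the filter on low counts in every fit.

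Whole seedlings of the wild-type accession Col-0 were grown for 10 days in long days, and were then left untreated (ctrl) or exposed to gaseous methyl jasmonate for 2 h (JA), and their messenger RNA was sequenced. The libraries fall into a pilot, Set1, with 2 ctrl and 2 JA libraries, and Set2, with 3 ctrl and 3 JA libraries. No library carried a mutation or a transgene, and the study's methods call the libraries of a group biological replicates, without saying in the text used here which plants were pooled. The comparison asked whether the RNA of the division genes differed between JA and ctrl seedlings within each set.

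Passage through a plant cell cycle is driven by cyclin-dependent kinases bound to cyclins. D-type cyclins act at the entry into the cycle and respond to growth cues, whereas A1- and B-type cyclins and the plant-specific B-type kinases accumulate from late S phase to mitosis, and KNOLLE is the syntaxin with which vesicles fuse to build the cell plate. Many genes of the G2 and M phases carry the mitosis-specific activator element (MSA) in their promoters, which is bound by transcription factors with 3 MYB repeats (MYB3R), and jasmonate is known as an inhibitor of seedling growth and of division in the root tip. In a whole seedling only a minority of cells divide, so that fewer dividing cells and less RNA per dividing cell cannot be told apart in these libraries.

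Most of the mitotic genes held a match to the MSA core near the gene start. The stretches below are the 150 bases before the annotated gene start, read from the TAIR10.1 assembly in the direction of the gene, with each MSA core, AACGG or its reverse complement CCGTT, in capitals. They are shown for the B1 cyclin with the most cores (AT5G06150) and the B1 cyclin whose promoter is commonly used in division reporters (AT4G37490). The cytokinesis gene KNOLLE and the D-type cyclin AT4G34160 follow. The stretches lie at chr5:1861704-1861853 (minus strand), chr4:17624309-17624458 (minus strand), chr1:2711001-2711150 (minus strand) and chr4:16357271-16357420 (plus strand), in that order. All were picked from genes that hold a core. Cores outside these 150 bases are not printed, such as those of KNOLLE at 12 and 36 bases after the gene start. KNOLLE and AT4G34160 therefore show the same number of cores here.
AT5G06150: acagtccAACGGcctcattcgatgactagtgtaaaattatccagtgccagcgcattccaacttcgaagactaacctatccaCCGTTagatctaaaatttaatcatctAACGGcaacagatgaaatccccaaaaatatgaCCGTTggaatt
AT4G37490: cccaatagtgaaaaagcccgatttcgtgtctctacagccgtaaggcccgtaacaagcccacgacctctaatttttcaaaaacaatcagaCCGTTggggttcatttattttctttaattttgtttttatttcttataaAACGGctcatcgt
AT1G08560: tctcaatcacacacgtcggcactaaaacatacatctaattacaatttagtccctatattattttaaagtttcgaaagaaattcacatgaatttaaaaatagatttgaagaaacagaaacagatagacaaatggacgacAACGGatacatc
AT4G34160: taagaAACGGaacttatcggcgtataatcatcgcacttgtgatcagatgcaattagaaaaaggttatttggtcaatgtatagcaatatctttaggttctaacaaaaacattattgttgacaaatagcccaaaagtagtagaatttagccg

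Over a window from 250 bases before to 50 bases after the gene start, searched on both strands, 7 of the 10 genes (70.0%) held at least 1 MSA core, against 24.7% of the promoters of 27443 nuclear protein-coding genes. At least 2 cores were present in 5 of the 10 (50%), against 4.89% of all promoters. AT5G06150 held 5 cores. The A1 cyclin AT1G44110, AT4G37490 and KNOLLE held 3 each, the B1 cyclin AT2G26760 held 2, and the B2-type kinase AT1G20930 and the D-type cyclin AT4G34160 held 1 each. The B2 cyclin AT1G76310 and the kinases AT3G54180 and AT1G76540 held no match in this window. Of 19 spindle and cytokinesis genes outside the 10, 13 (68.4%) held a core. So did 8 of 16 other A- and B-type cyclins (50%), 8 of 15 genes for inhibitors of cyclin-dependent kinases (53.3%) and 6 of 12 cell cycle transcription factors (50%). A core was in 4 of 15 DNA replication genes (26.7%) and in 0 of 9 other D-type cyclins. The core was thus not confined to mitotic genes. Neither form of the E2F site (TTCCCGC or TTGGCGC), an element of S-phase genes, was found in any of the 10 windows, whereas the first form was in 9 of 15 DNA replication genes (60%) and in 1.53% of all promoters. The G-box (CACGTG), a sequence that MYC2-type jasmonate regulators bind, was in none of the 10 windows and in 7.68% of all promoters. None of these letters overlaps another motif, and a match is a description of the letters and not a bound site.

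**Figure D1:**
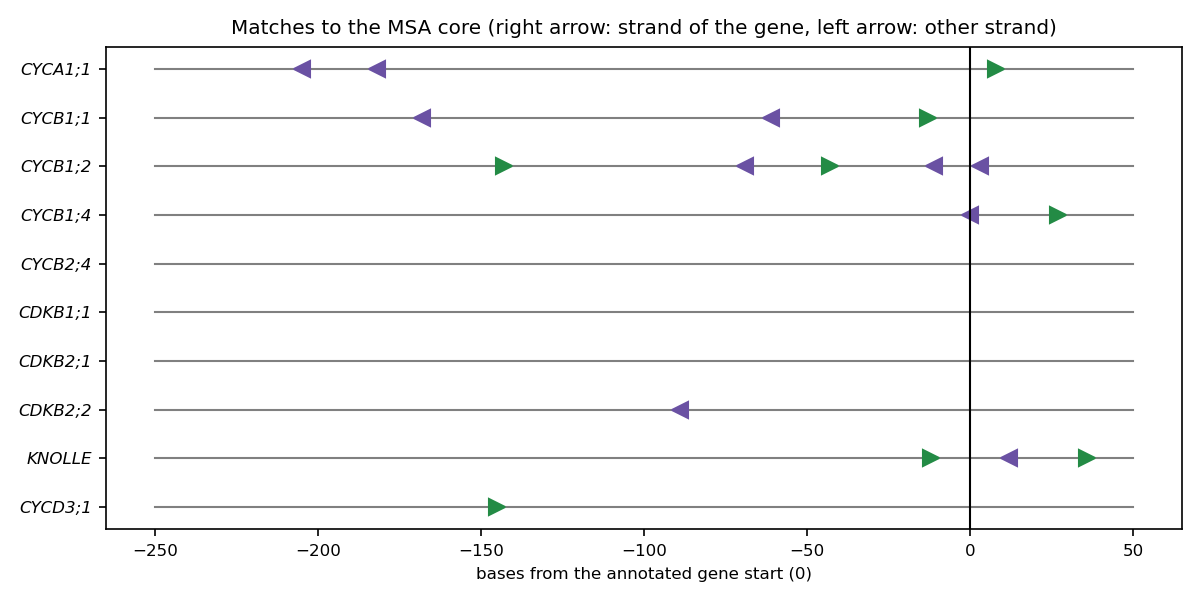
Positions of the MSA core in the 10 promoter windows, in bases from the annotated gene start (0), with arrows to the right for the strand of the gene and to the left for the other strand. The cores of KNOLLE and CYCB1;4 lie within 50 bases of the start, those of CYCB1;2 are spread over the proximal promoter, and 3 of the 10 genes hold none.

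The labels were checked with 3 genes known to respond to jasmonate. The transcription factor gene MYC2 was 3.69 (SE 0.32) log2 units higher under JA in Set1 and 3.52 (SE 0.44) higher in Set2, with adjusted p values of 0.00117 and 0.00229 in edgeR. The lipoxygenase gene LOX2 and the repressor gene JAZ10 were higher by 2.98 to 3.67 in each set. A robust prior moved the Set2 adjusted p of JAZ10 from 0.00518 to 0.0788.

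No division gene passed the test. By the quasi-likelihood test of edgeR, adjusted after Benjamini and Hochberg, 0 of the 10 genes reached an adjusted p of 0.05 with a change of at least 2-fold in Set1, in Set2 or over both sets with the set as a covariate, where 5.14%, 2.54% and 4.03% of all genes tested did. At the adjusted p alone, without the fold limit, the count was also 0 of 10, against 6.57%, 5.74% and 13.6% of all genes. At an unadjusted p of 0.05 or below by edgeR, 1 of the 10 lay lower under JA in each of the 3 fits and none higher. It was AT2G26760 in Set1 and AT4G34160 in Set2 and over both sets. Of all genes 9.95%, 9.67% and 12.6% lay lower, and 2013 of 20100, 1645 of 19259 and 2707 of 20213 lay higher. DESeq2, limma and each of the other settings tried also passed 0 of the 10, and the lowest adjusted p of any of the 10 in any setting was 0.147 in Set1, 0.112 in Set2 and 0.0981 over both sets.

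In edgeR's fits the intervals of these changes were narrow on the scale of the jasmonate response. The 95% intervals of the 10 log2 changes by edgeR reached from -0.79 to 0.54 in Set1, from -0.59 to 0.65 in Set2 and from -0.46 to 0.39 over both sets. A 2-fold change in either direction lay outside every one of these intervals. In Set1 this limit rests on edgeR. With limma on log2(TPM + 1), where TPM is a level per transcript length, the Set1 SEs of KNOLLE and AT3G54180 were 0.42 and 0.49. In edgeR they were 0.22 and 0.19. Intervals were not computed for limma, so the same limit is not shown on that scale.

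**Figure D2:**
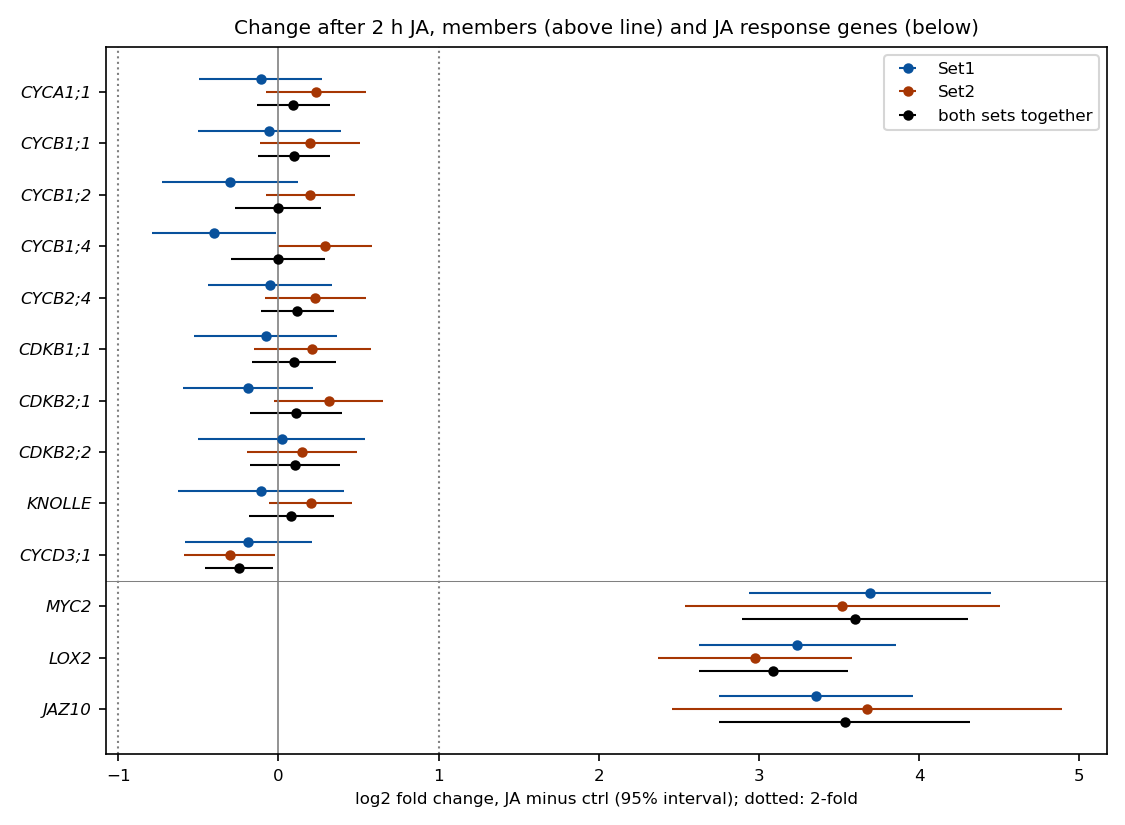
Log2 fold change, JA minus ctrl, with 95% intervals from edgeR for the 10 division genes and 3 jasmonate response genes in Set1, Set2 and over both sets. All 30 intervals of the division genes lie between the dotted lines at 2-fold, whereas MYC2, LOX2 and JAZ10 lie above 2 on the log2 scale in every fit.

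Among the B1 cyclins, which partner mitotic kinases, AT2G26760 (CYCB1;4) differed most from set to set. In CPM, counts divided by a library total that was scaled by trimmed means (TMM), its ctrl libraries read 27.3 and 25.1 in Set1 and its JA libraries 20.5 and 19.7. On this scale both JA libraries lay below both ctrl libraries, whereas in TPM, a level per transcript length, the Set1 groups overlapped (12.1 and 17.3 in ctrl, 10.9 and 14.5 in JA). In Set2 the ctrl libraries read 13.6, 11.7 and 12.2 CPM and the JA libraries 14.1, 15.5 and 16.6. There all 3 JA libraries lay above all 3 ctrl libraries, although the highest ctrl and the lowest JA library were close. The log2 change was -0.40 (SE 0.16, adjusted p = 0.234) in Set1 and 0.29 (SE 0.13, adjusted p = 0.280) in Set2 by edgeR. Over both sets it came to -0.00272 (95% interval -0.30 to 0.29). The difference between the sets, Set2 minus Set1, was 0.68 (95% interval 0.26 to 1.09), with an adjusted p of 0.334 in edgeR's interaction test, which passed 0 of 20213 genes (DESeq2 passed 148, and none of the 10). At an unadjusted p of 0.05 or below 2 of the 10, AT2G26760 and AT5G06150, lay higher in this test, as did 3.34% of all genes. Of 19002 genes tested in both sets, 0.505% showed the same pattern of JA libraries wholly below ctrl in Set1 and wholly above in Set2.

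The other B-type cyclins lay nearer to 0. AT5G06150 (CYCB1;2) read 49.2 and 60.5 CPM in the Set1 ctrl libraries and 46.5 and 43.8 in the JA libraries. The groups did not overlap in CPM, with a log2 change of -0.30 (SE 0.18, adjusted p = 0.430 by edgeR), but did in TPM (23.0 and 43.9 in ctrl, 26.1 and 33.9 in JA). In Set2 it read 27.7, 26.4 and 22.1 CPM in ctrl and 29.9, 26.4 and 31.5 in JA, and these groups overlapped at 0.20 (SE 0.12). AT4G37490 (CYCB1;1) spanned 17.3 to 21.5 CPM over the 4 Set1 libraries, with the highest and the lowest value both under JA. In Set2 its ctrl libraries read 11.2, 10.5 and 10.5 CPM and its JA libraries 13.2, 12.1 and 11.5, a difference of 0.20 (SE 0.14, adjusted p = 0.508 by edgeR) without overlap. The B2 cyclin AT1G76310 had log2 changes of -0.05 in Set1 and 0.23 in Set2, where its JA libraries (16.3 to 17.4 CPM) lay above its ctrl libraries (11.9 to 16.3 CPM) by a margin close to 0. The A1 cyclin AT1G44110 differed by -0.11 and 0.23, with overlapping groups in both sets.

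The B-type kinases gave values of the same order. The B2-type kinase AT1G76540 read 36.3 and 42.6 CPM in the Set1 ctrl libraries and 36.3 and 33.9 in JA, and 23.9, 16.0 and 19.5 CPM in Set2 ctrl against 23.1, 25.3 and 25.7 in JA. Its log2 change was -0.19 (SE 0.17) in Set1 and 0.32 (SE 0.15, adjusted p = 0.315 by edgeR) in Set2. In CPM the Set1 JA libraries lay below the ctrl libraries by a margin close to 0, and the ctrl libraries of Set2 spread more widely than the JA libraries. In TPM its Set1 groups overlapped (21.8 and 39.8 in ctrl, 26.2 and 33.8 in JA), whereas its Set2 JA libraries (from 29.2) lay above ctrl (up to 28.5). The second B2-type kinase, AT1G20930, differed by 0.02 in Set1 and 0.15 in Set2, and its Set1 ctrl libraries, at 19.4 and 28.7 CPM, stood on either side of both JA libraries. The B1-type kinase AT3G54180, with 65 to 246 counts a library, differed by -0.08 and 0.21. For each of these 2 kinases the groups overlapped in both sets.

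KNOLLE, the cell plate syntaxin, was the most abundant of the 10 genes. It read 107 and 80.9 CPM in Set1 ctrl and 101 and 76.0 in JA, and in each treatment replicate 1 lay well above replicate 2 in CPM. In TPM it read 63.23 and 74.35 in Set1 ctrl and 71.52 and 74.54 in JA, with replicate 1 below replicate 2. In Set2 it read 44.3, 39.5 and 34.1 CPM in ctrl and 45.1, 46.0 and 44.7 in JA. In CPM the JA libraries there lay just above the highest ctrl library, with a log2 change of 0.20 (SE 0.12, adjusted p = 0.405 by edgeR). In TPM the Set2 groups overlapped, with ctrl up to 52.1 and JA from 51.4.

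The D-type cyclin AT4G34160 (CYCD3;1), which acts at the entry into the cycle, was the only 1 of the 10 genes below ctrl in both sets. It read 41.4 and 47.4 CPM in Set1 ctrl and 39.7 and 39.4 in JA, and 42.4, 32.6 and 32.5 CPM in Set2 ctrl against 28.6, 29.1 and 29.5 in JA. In CPM every JA library lay below every ctrl library of its set, a pattern shared by 7.52% of the 19002 genes tested in both sets. In TPM its Set1 groups overlapped, at 17.8 and 31.8 in ctrl and 20.6 and 28.1 in JA. The log2 change was -0.19 (SE 0.17) in Set1, where it was 0.01 in limma on log2(TPM + 1), and -0.30 (SE 0.13) in Set2. Over both sets it was -0.25 (95% interval -0.46 to -0.03), with an adjusted p of 0.128 in edgeR, and this adjusted p ran from 0.0981 to 0.292 as each library was left out in turn. Set2 ctrl replicate 1 stood well above the other ctrl libraries, and without it the Set2 log2 change was -0.16.

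**Figure D3:**
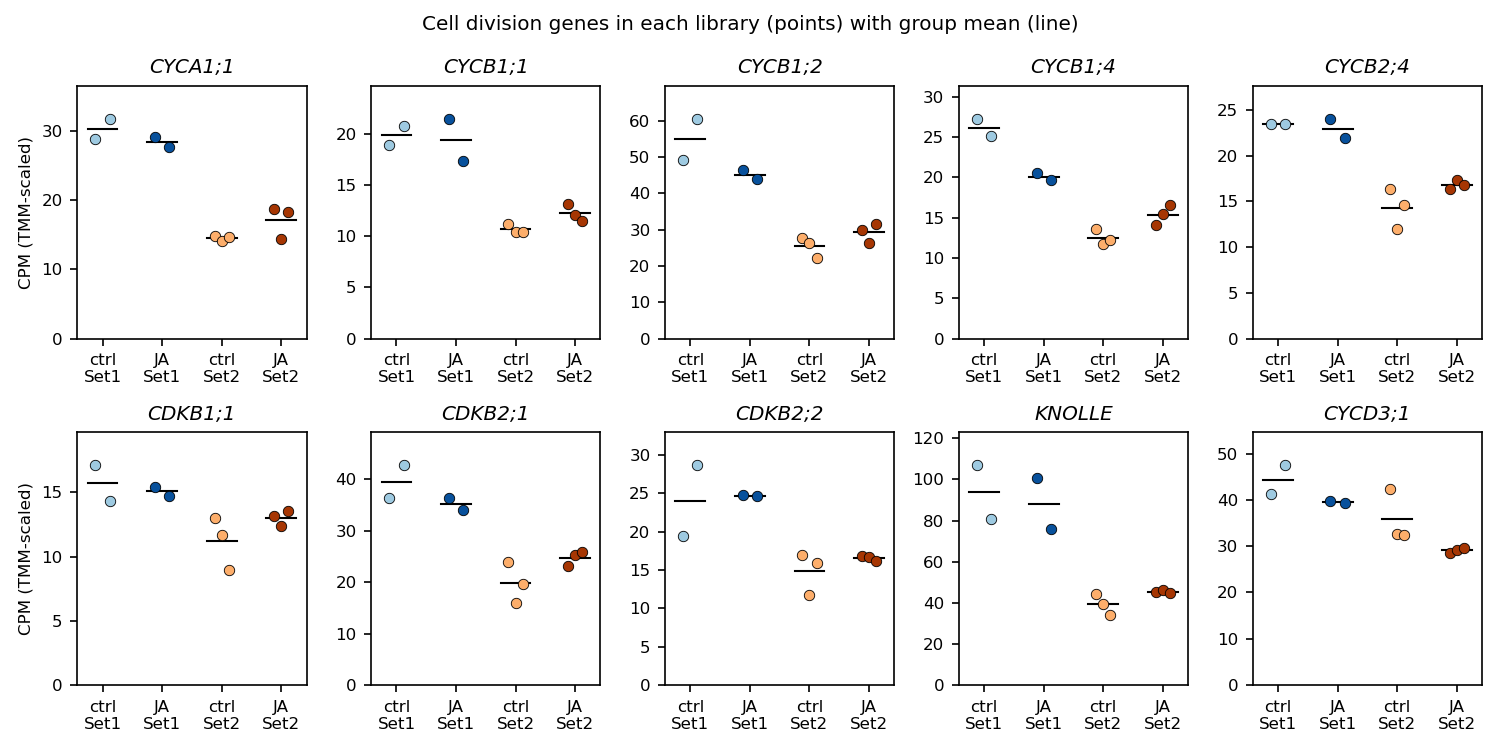
Level of each division gene in every library, in TMM-scaled CPM on an axis from 0, with points for libraries and lines for group means, in Set1 (blue) and Set2 (orange and brown). Most genes lay higher in Set1 than in Set2, JA and ctrl points lay close together within each set, and CYCB1;4 and CYCD3;1 show the 2 patterns described in the text.

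Counted together, most of the 10 genes lay above 0 in Set2, whereas the signs in Set1 depended on the scaling, and no single change passed. Under TMM scaling 9 of 10 lay below 0 in Set1, with a median log2 change of -0.11, whereas with library totals alone 5 of 10 did and with limma on log2(TPM + 1) 2 of 10. In Set2, 9 of 10 lay above 0 in every setting, with a median of 0.21. The medians of all genes tested were -0.02 and 0.01. Library totals and TPM moved the Set1 median of all genes from -0.02 to 0.10 and 0.15, and the median of the 10 relative to it was -0.09, -0.09 and -0.06 under TMM, library totals and limma on log2(TPM + 1). In 8 of the 10 genes the change was below 0 in Set1 and above 0 in Set2, against 17.4% of 19002 genes, and in 1 it was below 0 in both, against 34.9%. In TMM-scaled CPM the groups did not overlap for 4 of the 10 in Set1, all with JA lower, against 23.8% of genes lower and 25.6% higher. In Set2 they did not overlap for 5 of the 10, 4 with JA higher and 1 lower, against 10.9% and 12.1% of genes. These counts depend on the scale. In TPM the Set1 groups of all these 4 genes overlapped. In Set2 those of KNOLLE and AT1G76310 overlapped in TPM, whereas those of AT1G76540, which overlapped in CPM, did not. The genes of the list are co-expressed and were not tested as a group.

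Same-numbered ctrl and JA libraries of Set2 deviated together over all genes. The 3 pairs were taken by replicate number, which does not settle that the libraries belong together. In CPM the JA library lay above its ctrl library in 3 of 3 pairs for 6 of the 10 genes. Of all genes tested, 23.0% did so. The JA library lay below in 3 of 3 for the D-type cyclin, against 21.0%. The 6 include the A1 cyclin AT1G44110 and the kinase AT3G54180, whose groups overlap, and AT5G06150, AT1G76540 and AT1G20930 lay higher in 2 of 3 pairs. With the pairs as a block none of the 10 passed in Set2. The libraries of a group did not contribute alike. Averaged over the 10 genes after centring in each set and scaling to unit spread, Set2 ctrl replicates 2 and 3 stood lowest, at -1.07 and -0.94, while ctrl replicate 1 stood at 0.42 beside JA libraries at 0.60, 0.30 and 0.70. In Set1 ctrl replicate 2 stood highest at 0.58 and JA replicate 2 lowest at -0.74, and both replicate 1 libraries were near 0. Leaving out single Set2 libraries gave a median log2 change of the 10 genes between 0.19 and 0.29. The median percent coefficient of variation between replicates of the 10 genes was 14.2 in Set2 ctrl, above the 9.59 that counting alone gives, and 5.05 in Set2 JA, below the 8.60 of counting.

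Over the 45 pairs of the 10 genes, the Pearson correlation of log2(CPM + 1) over the 10 libraries, centred in each set, had a median of 0.43. The closest pair was the B2 cyclin AT1G76310 and the kinase AT1G76540 at 0.93, neither with an MSA core in its window, and the lowest value was -0.26, for the A1 cyclin and the D-type cyclin. These libraries differ in treatment, set and depth. With centring in each group, which removes the difference between JA and ctrl, the median was 0.33. The A1 and D-type cyclin pair then stood at 0.22, the D-type cyclin was positively correlated with all 9 others (0.19 to 0.86), and the lowest pair was AT1G20930 and KNOLLE at -0.37. Outside the lists, the genes most like the mean of the 10 among 18423 ranked were AT4G13370 (r = 0.94), AT1G72852 (0.94), AT5G20170 (0.93), AGD2 (AT1G60860, 0.92) and AT3G07440 (0.92). They passed in no fit, which is not a separate result, since the difference between JA and ctrl was part of how they were picked.

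Levels per transcript length, in TPM, set KNOLLE apart in untreated seedlings, at 68.8 ± 7.86 (SD, n = 2) in Set1 and 46.7 ± 5.19 (SD, n = 3) in Set2, above every other gene of the 10 without overlap. In Set2 the D-type cyclin AT4G34160 followed at 31.1 ± 4.61 TPM, then AT1G76540 at 23.9 ± 4.77 and AT5G06150 at 23.9 ± 2.17, each overlapping the one before, and AT5G06150 lay above the kinase AT1G20930 without overlap. That kinase, the B2 cyclin, the B1-type kinase and the A1 cyclin had means from 17.7 to 13.0 TPM, each overlapping the one before. The B1 cyclins AT2G26760 and AT4G37490 overlapped each other, below the A1 cyclin without overlap, at 11.2 ± 0.88 and 10.8 ± 0.39. In Set1 the ctrl libraries differed so much from each other on this scale that no neighbours below KNOLLE could be ordered. Summed TPM of the 10 was 192 and 300.1 in those ctrl libraries, which held 13.8% and 1.87% of their counts in plastid genes, and 189 to 230.4 in Set2 ctrl.

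Other cell cycle genes are given by their counts. Of 16 other A- and B-type cyclins 14 were tested in Set1 and 13 in Set2, none passed, and 11 lay below 0 in Set1 and 11 above 0 in Set2. Among 19 spindle and cytokinesis genes none passed, 15 lay below 0 in Set1 and 16 above 0 in Set2, with medians of -0.13 and 0.19. The spindle assembly factor gene TPX2, which had the lowest Set1 value of these 19, differed by -0.44 and 0.36, and the cytokinesis kinesin gene HINKEL by -0.04 and 0.37. The signs of the Set1 values of these lists were not recomputed under the other scalings. Of 15 DNA replication genes, 13 lay above 0 in Set1 and 8 in Set2, at medians of 0.18 and 0.03. RNR2A, which encodes a small subunit of ribonucleotide reductase, passed at the adjusted p alone over both sets, at 0.52 (SE 0.10, adjusted p = 0.00332 by edgeR, 0.054 by limma on log2(TPM + 1)). In edgeR it was the only 1 of the 15 that did, against 13.6% of all genes tested.

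Among 15 genes for inhibitors of cyclin-dependent kinases, 12 were tested over both sets and 2 passed at the adjusted p alone, in opposite directions, against 13.6% of all genes. KRP4 fell by 0.49 (SE 0.12, adjusted p = 0.0184 by edgeR) and KRP3 rose by 0.59 (SE 0.18, adjusted p = 0.0447). Both lost the call with library totals, with an adjusted p of 0.0940 and 0.0864 by edgeR, and with limma on log2(TPM + 1) and log2(TPM + 0.1). KRP3 also lost the call with the replicate block (0.0524) and without the filter on low counts (0.0566). KRP4 lost it too without Set1 ctrl replicate 1, either Set1 JA library or Set2 ctrl replicate 2, with an adjusted p of up to 0.0627, and KRP3 without any single library but Set2 ctrl replicate 2 or Set2 JA replicate 2, with up to 0.132. The other D-type cyclins, the other kinases and their CKS subunits, the activators of the anaphase-promoting complex and the cell cycle transcription factors, the MYB3R genes included, held no gene that passed in any fit.

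**Figure D4:**
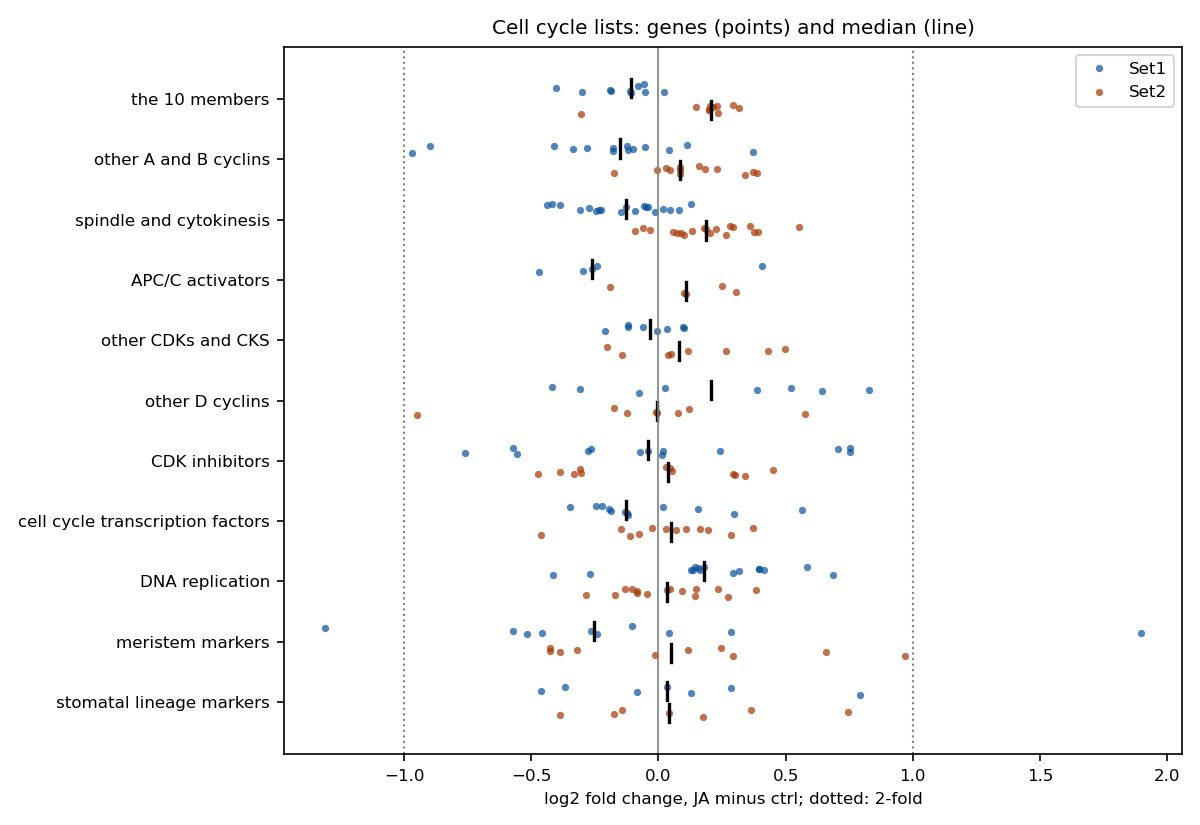
Log2 fold change, JA minus ctrl, of every tested gene of the cell cycle and dividing tissue lists in Set1 (blue) and Set2 (brown), with a line at each list's median. The medians of the 10 division genes (-0.11 and 0.21) and of the spindle and cytokinesis genes (-0.13 and 0.19) lie on opposite sides of 0 in the sets under the TMM scaling plotted, where the Set1 median of the 10 turns above 0 with library totals or TPM, and nearly all points lie between the dotted lines at 2-fold.

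Markers of the tissues in which seedling cells divide were measured beside the 10. The summed TPM of 12 meristem markers was 53.9 to 103 in Set1 ctrl and 74.0 to 92.7 in JA, and 91.3 to 102 in Set2 ctrl and 80.3 to 97.3 in JA, so that the groups overlapped in both sets. Of these, the root stem cell niche gene WOX5 rose by 1.90 (SE 0.43, adjusted p = 0.0497 by edgeR) in Set1, from 20 and 21 counts in ctrl to 73 to 119 in JA, and by 1.44 (adjusted p = 0.0159) over both sets. With median-of-ratios factors its Set1 adjusted p by edgeR was 0.0512, which did not pass. The Set1 call was lost without ctrl replicate 2 or JA replicate 1 (adjusted p up to 0.293), and the call over both sets without either Set1 ctrl library or Set1 JA replicate 1 (up to 0.0911). The shoot meristem gene KNAT1 fell by 0.43 (SE 0.12, adjusted p = 0.0360 by edgeR) over both sets. This call was lost with library totals (0.122) and without the filter on low counts (0.0613). It was also lost with limma on log2(TPM + 1) (0.357) and log2(TPM + 0.1) (0.360), and without any single library but Set2 ctrl replicate 2 or Set2 JA replicate 3. With single libraries left out the KNAT1 log2 change ran from -0.52 to -0.37. Of the 10 meristem markers tested, 1 passed higher and 1 lower at the adjusted p alone over both sets, against 13.6% of all genes. In Set1 only WOX5 passed, against 6.57% of all genes. Of the 10, 7 lay below 0 in Set1 and 5 in Set2, with medians of -0.25 and 0.05. The root stem cell factor gene PLT2, which had the lowest Set1 change of the meristem markers tested, read 2.23 CPM in Set1 ctrl and 0.898 in JA. This was a log2 change of -1.31 (SE 0.43, adjusted p = 0.150 by edgeR) that did not pass, and in Set2 it was 0.66 (SE 0.41). The stem cell gene WUS had no count in either Set1 ctrl library. Its counts ran from 0 to 1 in Set1 JA, from 0 to 2 in Set2 ctrl and from 0 to 11 in Set2 JA. The summed TPM of 7 stomatal lineage markers overlapped between ctrl and JA in both sets, and none passed. Of 4 markers of green tissue and root, the light-harvesting gene CAB1 fell by 0.47 in Set1 (adjusted p = 0.0409 by edgeR). It was the only 1 of the 4 that passed at the adjusted p alone there, against 6.57% of all genes. This call was lost in DESeq2 (0.0527), with library totals (0.647) and with limma on log2(TPM + 1) (0.9998) and log2(TPM + 0.1). It was also lost without either ctrl library or JA replicate 2. With single Set1 libraries left out the CAB1 log2 change ran from -0.50 to -0.42. All 4 of these markers lay below 0 in Set1, at a median of -0.56, and 3 of 4 did in Set2, at a median of -0.06. In Set1 the root endodermis gene CASP1 read 28.8 CPM in ctrl and 18.6 in JA and the root hair gene COBL9 read 5.65 and 3.31, and neither passed. In Set2 CASP1 read 18.2 CPM in ctrl and 17.7 in JA and COBL9 read 4.53 and 5.57, a log2 change of 0.30 (SE 0.28) in the other direction. Apart from CAB1, the signs of these markers were not recomputed under the other scalings. The part of these markers in the values of the 10 genes was not tested.

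Depth and library makeup bear on these values. The libraries held 12147941 to 17200426 expected counts in Set1 and 6333822 to 7774547 in Set2, and the 10 genes had 65 to 1290 counts each, so that Set1 and Set2 levels also differ by batch and library makeup, which cannot be told apart from the plants. In Set1 both replicate 1 libraries stood apart, with 13.8% (ctrl) and 11.4% (JA) plastid counts and 11.6% and 8.98% rRNA counts, against 1.87% and 0.684% plastid and 1.32% and 0.653% rRNA in ctrl and JA replicate 2. Leaving out single Set1 libraries gave a Set1 median of the 10 genes between -0.20 and -0.06, and without organelle and rRNA genes 9 of the 10 lay below 0. Set2 JA replicate 1 stood apart in its set, with 2.61% plastid counts against 0.121% to 0.377% in the other Set2 libraries and counts in 74.5% of 5029 genes that were silent in Set1, against 10.5% to 37.1% in the other Set2 libraries. Without it, the Set2 changes were 0.34 for AT2G26760, -0.30 for AT4G34160 and 0.19 at the median of the 10. Counts of AT5G06150 and KNOLLE were not whole in any of the 10 libraries, as RSEM gives where reads match more than 1 place. KNOLLE, AT3G54180, AT1G76540 and AT1G20930 overlap a gene on the opposite strand by 464, 71, 44 and 192 bases and AT4G34160 one on the same strand by 40 bases, and whether the counting used the strand is not given in the sources used here.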

How the data were processed

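RNA of 10 libraries of Col-0 seedlings was made into stranded mRNA libraries. The authors aligned reads to TAIR10 with STAR 2.7.5a and estimated expected counts and TPM per gene with RSEM 1.3.3 (versions per the submitters' processing notes), and deposited both in 1 table per library. Deposited tables of the authors' own edgeR 3.36.0 comparisons hold fold changes and p-values and were not used. The strand setting of the counting is not given in the sources used here.

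After rounding of expected counts to integers, they were tested in R 4.3.3 with edgeR 4.0.16 (filterByExpr by group, TMM scaling, quasi-likelihood F test, Benjamini-Hochberg adjustment over all genes tested), in Set1, in Set2, over both sets with the set as covariate, and as a set by treatment interaction. A gene was called at an adjusted p of 0.05 or below and a change of at least 2-fold, with the adjusted p alone given beside it. CPM used TMM factors over all 10 libraries. Standard errors are the log2 change over the square root of F. Fits were tested on simulated counts.

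Alternatives were DESeq2 1.42.0, other scalings, no filter, limma 3.58.1 on log2(TPM + 1) and log2(TPM + 0.1), the replicate number as a block, and each library left out. A robust prior and leaving out organelle and rRNA genes were added after seeing the data. Same-numbered ctrl and JA libraries deviated together (correlations of 0.234, 0.290 and 0.293 in Set2 over 19259 genes, others at or below -0.03). The deviations were centred in each group, so the low values of the others follow in part from the high ones. The Set2 libraries were taken as pairs by their numbers, which so few libraries do not settle. In Set1 the correlation was 0.488, where 2 pairs leave a single value. The Set1 numbers come from the sample titles, while the deposited names number the ctrl libraries the other way round. The Set1 pairs are therefore uncertain. No 2 libraries were identical.

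Promoters were read from the RefSeq TAIR10.1 assembly. It gave the same transcript length as the deposited tables for 99.3% of 21629 genes with a single transcript. The 10 genes and all lists were chosen with earlier results of these data known. The text names all 10, the genes of other lists that passed in any fit, the JA response genes and the 5 genes most alike, and also TPX2, HINKEL, PLT2, CASP1 and COBL9, which were chosen after their values were seen. Totals ranged from 6333822 to 17200426 counts.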

Additional observations from a re-analysis of the deposited data

Results flagged for a closer look

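In TMM-scaled CPM, the B1 cyclin gene CYCB1;4 had both JA libraries of Set1 below both ctrl libraries and all 3 JA libraries of Set2 above all 3 ctrl libraries, although its change passed in neither set (adjusted p of 0.234 and 0.280 by edgeR). In TPM the Set1 groups overlapped, at 12.1 and 17.3 in ctrl and 10.9 and 14.5 in JA. The difference in its log2 change, Set2 minus Set1, was 0.68 (SE 0.19). edgeR's interaction test gave it an adjusted p of 0.334, which did not pass, and over the alternatives this adjusted p ran from 0.220 with the replicate block to 0.999 with limma on log2(TPM + 1), where the difference was 0.45. The difference was above 0 in every alternative.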

How the results depend on the processing

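No setting passed any of the 10 division genes, at either threshold, in any of the 4 fits, and the replicate block changed no call among them (Set1 median -0.11 and Set2 median 0.21 with the block). In Set2 no value of the 10 changed sign in 15 settings.

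In Set1 the median log2 change of -0.11 moved to 0.00787 with library totals, 0.0867 with limma on log2(TPM + 1) and 0.0905 on log2(TPM + 0.1), and single genes reversed: with library totals CYCB1;1 0.0427, CYCB2;4 0.0634, CDKB1;1 0.0555 and KNOLLE 0.0165, on log2(TPM + 1) CYCA1;1 0.0840, CYCB1;1 0.125, CYCB2;4 0.199, CDKB1;1 0.116, CDKB2;1 0.0112, KNOLLE 0.0894 and CYCD3;1 0.0129, and on log2(TPM + 0.1) CYCA1;1 0.0903, CYCB1;1 0.137, CYCB2;4 0.213, CDKB1;1 0.124, CDKB2;1 0.0131, KNOLLE 0.0906 and CYCD3;1 0.0149. Leaving out single Set1 libraries gave -0.198 to 0.0623 for CDKB1;1, -0.223 to 0.333 for CDKB2;2, -0.182 to 0.0928 for CYCB1;1, -0.0832 to 0.0138 for CYCB2;4, -0.293 to 0.113 for KNOLLE and -0.196 to -0.0592 for the median. Over both sets CYCB1;2 and CYCB1;4, near 0 in the main design, were 0.0401 and 0.0531 with library totals, 0.0711 and 0.0826 on log2(TPM + 1), 0.0745 and 0.0893 on log2(TPM + 0.1), and -0.0763 to 0.0903 and -0.0669 to 0.0732 with single libraries left out.

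The interaction median of 0.28 moved to 0.188 with library totals, 0.0971 on log2(TPM + 1) and 0.101 on log2(TPM + 0.1), and spanned 0.219 to 0.380 with libraries left out. On the same 2 TPM scales the interaction values were -0.0393 and -0.0425 for CYCB2;4, -0.0829 and -0.0911 for CDKB2;2, and -0.105 and -0.0862 for KNAT1, which was -0.00218 with library totals. With libraries left out they spanned -0.212 to 0.363 for CDKB2;2, -0.250 to 0.00364 for CYCD3;1, -0.0423 to 0.231 for KNAT1, -0.455 to 0.618 for JAZ10, -0.664 to 0.0292 for LOX2 and -0.575 to 0.530 for MYC2, and CAB1 in Set2 spanned -0.178 to 0.0462. The cause of these changes was not tested. Over all genes, the interaction passed 0 in the main design, 148 in DESeq2, 79 without the filter on low counts, 61 with the replicate block, and 6 each with a robust prior and without organelle and rRNA genes. In Set1, 57.2% of the 1033 called genes were higher, against 70.9% of 722 with library totals and 75.3% of 672 with limma on log2(TPM + 1).

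With the block in Set1, where the ctrl numbers differ between titles and deposited names and are not shown to pair the libraries, RNR2A passed at 0.690 (adjusted p = 0.0153 by edgeR) and KRP4 at -0.759 (adjusted p = 0.0147). Some settings without the block also passed these genes in Set1. RNR2A passed in DESeq2 (0.0373) and, by edgeR, without the filter on low counts (0.0498). KRP4 passed by edgeR without the filter (0.0461), with a robust prior (0.0393) and without organelle and rRNA genes (0.0441). Block values over both sets and of the interaction use the same Set1 numbers.

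Limits: Set1 had 2 libraries a group, CDKB1;1 had 65 to 122 counts a library in Set2, and a single time of 2 h was sampled.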
